A study of Mus musculus with 6 samples.

Results

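The genes described here encode the fatty acid desaturases and elongases of mouse liver, 10 members of the Scd, Elovl and Fads families chosen by name: Scd1, Scd2, Elovl1, Elovl2, Elovl3, Elovl5, Elovl6, Fads1, Fads2 and Fads3. They are 10 of the 23284 genes counted, and all 10 passed the filter on low counts that left 12559 genes for testing. Liver RNA of 6 C57BL/6 mice, 8 weeks old and male by the methods of the study, was sequenced as paired-end reads. All mice were fasted overnight and kept fasting during treatment, which lasted 6 h. The Vehicle group (3 mice) received vehicle alone and the FGF19 group (3 mice) received 1 mg/kg of FGF19, a gut hormone of humans that the ileum releases after a meal and whose mouse counterpart is FGF15. The comparison asks how FGF19 changes the hepatic genes that desaturate and lengthen fatty acids, within a study of repression of lipogenesis by FGF19.

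Fatty acid synthase ends mainly at palmitate, and desaturases and elongases of the endoplasmic reticulum then remodel the chain. Stearoyl-CoA desaturases place a single double bond in palmitate and stearate and so make the monounsaturated fatty acids that fill triglycerides and cholesterol esters, and in liver their main gene is a classical target of SREBP1 and of feeding. Elongases catalyse the rate-limiting condensation that adds carbons taken from malonyl-CoA, some on saturated and monounsaturated chains and others on polyunsaturated chains. The Fads desaturases act on essential fatty acids from the diet, and together with the polyunsaturated elongases they lead to arachidonic and docosahexaenoic acid. The members were therefore ordered as monounsaturated desaturases (Scd1, Scd2), elongases of saturated and monounsaturated chains (Elovl1, Elovl3, Elovl6) and the polyunsaturated branch (Fads1, Fads2, Elovl2, Elovl5). Fads3, which desaturates the sphingoid base of ceramides, was kept apart.

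The total count per library was between 18994654 and 22920056, and a gene without reads may still have had up to 3 counts. That is 0.131 to 0.158 CPM (counts relative to library size, here without TMM scaling), and covers counting error only. The levels given below are TMM-scaled CPM. Hepatocyte markers were high, with 95700 to 107000 CPM summed over 10 genes. Of 7 adipocyte markers, Lep and Retn had no count in any library, while Fabp4 and Cidec averaged 10.1 and 16.1 CPM in Vehicle mice. Libraries of different groups were less alike than libraries of the same group (r across genes between 0.975 and 0.982 against 0.984 to 0.993, genes not being independent replicates), and FGF19 replicate 3 was the least like the other FGF19 libraries. It also had the lowest level of its group in 6 of the 10 members, whereas Vehicle replicate 1 had the highest level of its group in 6. Nothing says whether mice shared a cage or a day, so p-values measure the spread between these mice.

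After FGF19 treatment 1 member was lower and 1 was higher at an adjusted p under 0.05, the threshold for a call used here. Scd1, which makes oleate and palmitoleate, fell to less than its level in any Vehicle mouse, and Elovl1, an elongase of very long saturated chains, rose by a smaller amount. These are 1 lower and 1 higher member of 10, where 2.84% of all genes tested were lower, 4.56% were higher and 7.41% were either. At the threshold of the study, an unadjusted p under 0.01, there were 2 lower members, Scd1 and Elovl6, and 1 higher member, Elovl1, against 4.98% lower, 6.2% higher and 11.2% either of all genes. In 4 members (Scd1, Elovl6, Elovl2 and Fads1) every FGF19 mouse was below every Vehicle mouse, and in Elovl1 every FGF19 mouse was above, against 13.8% and 14.5% of all genes. The median log2 fold change of the 10 members was -0.22, with 7 of them below 0, where 50.1% of all genes were below 0. With 10 genes these counts describe the list and were not tested as a set.

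**Figure D1:**
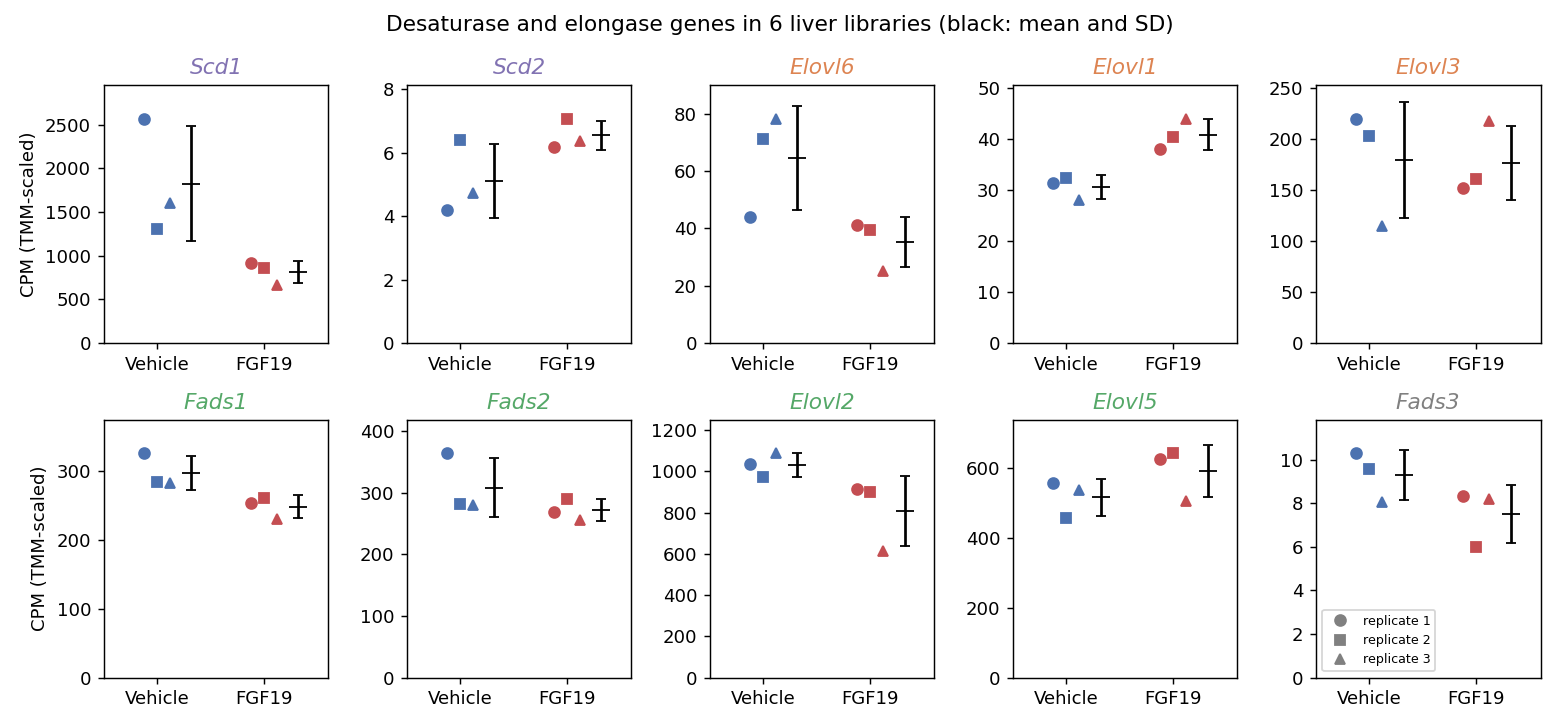
TMM-scaled CPM of each member in the 6 libraries, with 1 point per mouse (symbols mark the replicate number), the group mean and its SD in black, and a linear axis from 0 in each panel. Title colours mark monounsaturated desaturases (purple), saturated and monounsaturated elongases (orange), the polyunsaturated branch (green) and Fads3 (grey). The groups are separate in Scd1, Elovl6, Elovl1, Fads1 and Elovl2 and overlap in the other members.

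The sequences just upstream of the start of these genes are given where they help to compare members that went different ways, since the study concerns DNA methylation at CpG sites near lipogenic promoters. RefSeq promoters (build GRCm38.p6) were matched for 6 of the 10 members, Elovl1, Elovl2, Elovl5, Elovl6, Fads2 and Fads3; those of Scd1, Scd2, Elovl3 and Fads1 are not printed. Shown are the 250 bases before the start of Elovl6 (lower at an unadjusted p under 0.01), Elovl1 (higher) and Fads2 (not called), read 5′ to 3′ on the strand of the gene, with every CpG in capitals. They lie at chr3:129532136-129532385 on the plus strand, chr4:118427843-118428092 on the plus strand and chr19:10101504-10101753 on the minus strand of GRCm38.p6.
Elovl6: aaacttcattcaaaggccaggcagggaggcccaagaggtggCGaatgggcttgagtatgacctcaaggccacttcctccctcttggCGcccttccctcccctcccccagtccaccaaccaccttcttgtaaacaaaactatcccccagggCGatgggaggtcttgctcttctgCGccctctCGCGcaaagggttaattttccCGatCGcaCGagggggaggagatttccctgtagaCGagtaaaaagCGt
Elovl1: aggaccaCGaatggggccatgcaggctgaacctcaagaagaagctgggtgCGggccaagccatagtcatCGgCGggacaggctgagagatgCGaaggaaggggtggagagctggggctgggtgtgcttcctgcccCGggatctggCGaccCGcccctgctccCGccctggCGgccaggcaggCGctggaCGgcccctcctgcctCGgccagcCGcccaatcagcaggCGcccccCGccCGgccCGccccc
Fads2: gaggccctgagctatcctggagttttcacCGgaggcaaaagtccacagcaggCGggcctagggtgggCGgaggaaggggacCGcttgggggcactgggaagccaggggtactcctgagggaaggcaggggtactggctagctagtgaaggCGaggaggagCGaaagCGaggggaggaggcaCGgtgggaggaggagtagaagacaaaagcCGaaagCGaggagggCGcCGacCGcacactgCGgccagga
Each sequence occurs once on its chromosome in mm9, the build of the counts, and ends at the base before the first exon of the gene model used for counting.

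The window of Elovl6 held 11 CpG and that of Fads2 held 14, while that of Elovl1 at its most upstream start held 18. These were above the median of 6 CpG over 32841 RefSeq promoter windows of the same length. A second Elovl1 start, at which the window held 5 CpG, was below it. Elovl5 also held 14, Fads3 held 26, and Elovl2 held 49 at its most upstream start, which is as many as or more than 99.9% of the windows. Motifs were searched on both strands, and no motif searched contains another, although the CCAAT box of Elovl1 shares bases with 1 of its 5 GC boxes. No window of the 6 members held the sterol regulatory element TCACNCCAC, which is present in 1.05% of all windows. The E-box CACGTG was found in Elovl5 (6.02% of all windows), the GC box GGGCGG in Elovl1, Elovl2, Fads2 and Fads3 (32.7%), and the CCAAT box CCAAT in Elovl1, Elovl5 and Fads3 (33.9%). The direct repeat 1 of nuclear receptors, found in 0.0335% of all windows, was in none of the 6. The window of Elovl6 held none of these letters. A match is only a description of the letters.

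Among the monounsaturated desaturases, Scd1 was by far the more abundant gene and the one that fell. Scd1 lies on chromosome 19 of mm9 from 44468940 to 44482199 on the minus strand. Its level was 2572, 1304 and 1601 CPM in Vehicle replicates 1, 2 and 3 and 913, 862 and 667 CPM in FGF19 replicates 1, 2 and 3. The Vehicle mice differed from each other by up to 1.97-fold and the FGF19 mice by up to 1.37-fold, and the groups did not overlap. The means were 1826 ± 663 CPM and 814 ± 130 CPM (SD, 3 mice each), and the log2 fold change was -1.17 (standard error 0.229, 95% interval -1.68 to -0.65, adjusted p = 0.016 in edgeR's quasi-likelihood test), a level of 0.446 times that of Vehicle mice. Without Vehicle replicate 1, which had the highest value, the log2 fold change was -0.84 and still called (adjusted p = 0.0221), and without FGF19 replicate 2 it was -1.20 and no longer called (adjusted p = 0.054). Over all alternatives the adjusted p of Scd1 was between 1.44e-06 and 0.054.

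Scd2, a desaturase known mainly from brain and from the liver of young mice, lies in the same gene cluster as Scd1, at 44368166 to 44381352 on the plus strand. It was at 4.19, 6.41 and 4.72 CPM in the Vehicle mice and at 6.19, 7.08 and 6.38 CPM in the FGF19 mice. These values overlap, and the log2 fold change was 0.36 with a 95% interval of -0.04 to 0.77, which edgeR did not call (adjusted p = 0.271). It was 0.24 without Vehicle replicate 1 and 0.56 without Vehicle replicate 2. Per length, Scd1 took between 99.2% and 99.9% of the summed RPKM of both genes in every library, so that the sum followed Scd1. The log2 ratio of Scd1 to Scd2 counts was 8.45 ± 0.797 (SD, n = 3) in Vehicle mice and 6.95 ± 0.25 (SD, n = 3) in FGF19 mice, without overlap (two-sided exact permutation test, p = 0.1, the smallest that 3 against 3 mice can give). Some reads of the Scd genes can be lost, since multi-mapping reads were left out of the counts. Of the 100-base windows, 2.64% of those of the Scd1 transcript and 0.897% of those of Scd2 recur in other Scd transcripts. For the other 8 members no such window recurred in a protein-coding transcript of another gene.

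Of the elongases of saturated and monounsaturated chains, only Elovl1 was called, Elovl6 just missed the adjusted threshold with lower values in FGF19 mice, and Elovl3 did not separate the groups. The median log2 fold change of the 3 genes was -0.02, within a range of -0.87 to 0.41, and the median over all genes tested was -0.00076. Elovl6 elongates palmitate to stearate, the substrate of Scd1, and lies on chromosome 3 from 129235304 to 129341411. Its level was 44.0, 71.4 and 78.4 CPM in Vehicle replicates 1, 2 and 3 and 41.4, 39.3 and 25.1 CPM in FGF19 replicates 1, 2 and 3. Vehicle replicate 1 lay just above the highest FGF19 mouse, so that the groups were separate by a small margin. The log2 fold change was -0.87 (standard error 0.232, 95% interval -1.39 to -0.35), with an unadjusted p of 0.00403 and an adjusted p of 0.0525 in edgeR's quasi-likelihood test. The alternatives gave an adjusted p between 0.00175 and 0.196, and without Vehicle replicate 1 the log2 fold change was -1.09 (adjusted p = 0.0187).

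The same Vehicle mouse that was highest in Scd1 was thus lowest in Elovl6. The order of the 3 Vehicle mice was 1, 3, 2 from high to low in Scd1 and 3, 2, 1 in Elovl6, while FGF19 replicate 3 was the lowest of its group in both genes.

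Elovl1, which makes very long saturated and monounsaturated chains for sphingolipids, lies on chromosome 4 from 118100698 to 118105521. It was at 31.5, 32.4 and 28.0 CPM in the Vehicle mice and at 38.0, 40.4 and 44.0 CPM in the FGF19 mice, with no overlap and a spread of at most 1.16-fold within either group. The log2 fold change was 0.41 (standard error 0.0987, 95% interval 0.19 to 0.63, adjusted p = 0.036 in edgeR's quasi-likelihood test), or 1.33-fold. The call was lost without any of Vehicle replicates 1, 2 and 3 or FGF19 replicates 1 and 2 (adjusted p 0.0859, 0.0648, 0.154, 0.0698 and 0.105), and kept without FGF19 replicate 3 (0.0327), while the log2 fold change stayed between 0.35 and 0.46. Elovl1 is expressed in many cell types, and in bulk liver a change in the number of cells of a type cannot be told apart from a change in RNA per cell. Of 7 macrophage markers, 2 were higher in the main fit and in every alternative. These were Marco (log2 fold change 2.29, means of 6.15 CPM in Vehicle and 30.2 CPM in FGF19 mice) and Cd68 (0.66). Emr1 at 0.36 and Vsig4 at -0.54 were not called (unadjusted p = 0.0273 and 0.00733 in edgeR). The macrophage markers summed to 184 to 232 CPM in Vehicle mice and 191 to 225 CPM in FGF19 mice, most of it from Clec4f, Cd5l and Csf1r. Endothelial markers, with 1 of 6 higher (Cdh5, 0.43) and Clec4g at -0.38 that was not called (unadjusted p = 0.00694 in edgeR), summed to 222 to 240 and 221 to 243 CPM. Adipocyte markers, with 1 of 3 tested higher (Fabp4), summed to 21.1 to 35.5 CPM and 37.5 to 49.8 CPM, and neutrophil markers, with S100a9 higher, summed to 0.477 to 1.59 CPM and 3.12 to 4.6 CPM. Nearly all of the adipocyte sum was Fabp4 (means of 10.1 and 14.4 CPM) and Cidec (16.1 and 27.5 CPM). Cidec had a log2 fold change of 0.77 and was not called (unadjusted p = 0.0158 in edgeR). The calls of Cdh5 and Fabp4 were each lost with any library left out other than FGF19 replicate 3, and that of S100a9 without Vehicle replicate 1 or 2 or FGF19 replicate 1 or 2. The adipocyte and neutrophil sums did not overlap between the groups, Adipoq and Plin1 were below 0.1 CPM on average, and the part of these cells in the change of Elovl1 or Scd1 was not tested. The counting ignored strand, and 16 bases of the Elovl1 exons also belong to Cdc20 on the other strand.

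Elovl3, an elongase of saturated and monounsaturated chains that in mouse liver follows a daily rhythm and is higher in males, lies on chromosome 19 from 46206389 to 46210184. Its level was 220, 204 and 115 CPM in Vehicle replicates 1, 2 and 3 and 152, 161 and 218 CPM in FGF19 replicates 1, 2 and 3. The spread within the Vehicle group was 1.92-fold, and the log2 fold change was -0.02 with a 95% interval from -0.53 to 0.49 (adjusted p = 0.97 in edgeR's quasi-likelihood test), which does not exclude changes of that size in either direction. Of 13 circadian genes, 4 were lower (Per3, Cry2, Dbp and Tef) and none was higher in edgeR, where 1 had an unadjusted p under 0.05 upwards, and DESeq2 called 5 lower and 1 higher. Of these 4 edgeR calls only that of Tef held without Vehicle replicate 3 or without FGF19 replicate 2. Of 10 male-biased liver genes edgeR called none, with 4 at an unadjusted p under 0.05, while DESeq2 called 2 lower and 1 higher. The summed level of the circadian genes was 534 to 561 CPM in Vehicle mice and 399 to 412 CPM in FGF19 mice, and their part in the levels of Elovl3 or of other members with a daily rhythm was not tested.

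**Figure D2:**
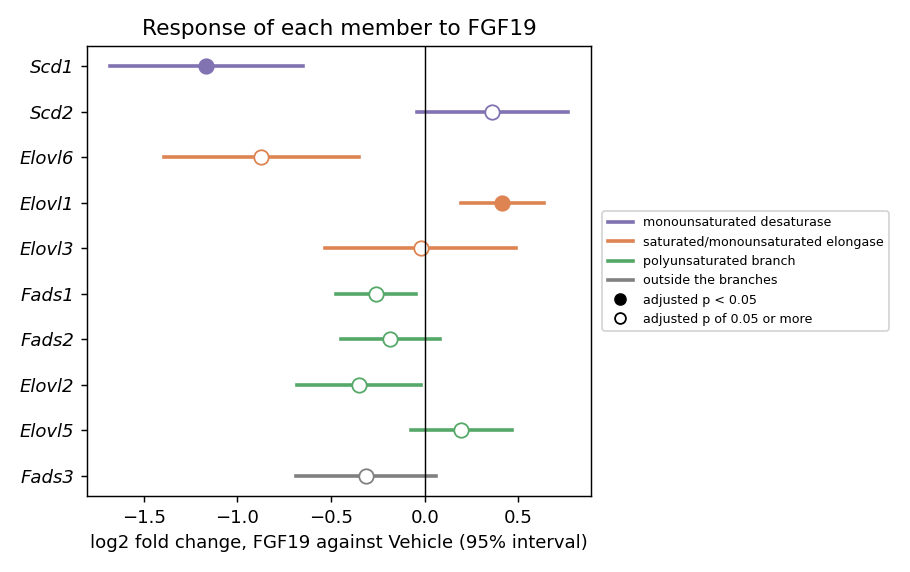
Log2 fold change of each member, FGF19 against Vehicle, from edgeR's quasi-likelihood test, with the 95% interval as a line and the branch as its colour. Filled points passed an adjusted p under 0.05 (Scd1 at -1.17 and Elovl1 at 0.41), open points did not, and the intervals of Elovl6, Fads1 and Elovl2 also lie below 0 before adjustment.

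In the polyunsaturated branch no member was called, and the differences were smaller than in Scd1 and Elovl6. The log2 fold changes ran from -0.35 to 0.20 with a median of -0.22, and edgeR called 0 of 4 at either threshold, as did DESeq2 at an adjusted p under 0.05, while 2 of 4, Elovl2 and Fads1, were lower at an unadjusted p under 0.05. Of all genes tested, 11.3% were lower, 11.6% higher and 22.9% either at that threshold.

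Fads2, which catalyses the first and rate-limiting desaturation of linoleic and α-linolenic acid, lies on chromosome 19 from 10138654 to 10175993. It was at 364, 281 and 280 CPM in the Vehicle mice and at 269, 291 and 256 CPM in the FGF19 mice, and the groups overlapped. The log2 fold change was -0.18 (95% interval -0.45 to 0.08, adjusted p = 0.399 in edgeR's quasi-likelihood test), and it was -0.048 without Vehicle replicate 1, the highest library. Fads1, the desaturase that makes arachidonic acid from its direct precursor, lies in the same gene cluster from 10257378 to 10271362. Its level was 326, 283 and 282 CPM in Vehicle mice and 254, 261 and 230 CPM in FGF19 mice. All FGF19 mice were below all Vehicle mice, with a log2 fold change of -0.26 (95% interval -0.47 to -0.04, unadjusted p = 0.0228 and adjusted p = 0.141 in edgeR's quasi-likelihood test). The log2 ratio of Fads1 to Fads2 counts was -0.05 ± 0.0981 (SD, n = 3) in Vehicle mice and -0.13 ± 0.0434 (SD, n = 3) in FGF19 mice, and it overlapped (two-sided exact permutation test, p = 0.4). The difference was -0.08, and -0.14, -0.054 and -0.055 without Vehicle replicates 1, 2 and 3 in turn.

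Neither elongase of this branch was called. Elovl2, which lengthens the longer polyunsaturated chains on the way to docosahexaenoic acid, lies on chromosome 13 from 41277751 to 41315772 and was among the most abundant members. It was at 1037, 972 and 1088 CPM in the Vehicle mice and at 913, 902 and 615 CPM in the FGF19 mice. The groups did not overlap, and FGF19 replicate 3 lay far below the other FGF19 mice. The log2 fold change was -0.35 (95% interval -0.68 to -0.02, unadjusted p = 0.039 and adjusted p = 0.191 in edgeR's quasi-likelihood test), and it was -0.18 without FGF19 replicate 3. Elovl5, which lengthens the products of Fads2, lies on chromosome 9 from 77765172 to 77832326. It was at 556, 456 and 537 CPM in the Vehicle mice and at 627, 643 and 505 CPM in the FGF19 mice, with an overlap between the groups, a log2 fold change of 0.20, a 95% interval of -0.07 to 0.46 and an adjusted p of 0.374 in edgeR's quasi-likelihood test. It was 0.11 without Vehicle replicate 2 and 0.30 without FGF19 replicate 3.

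The ratio of these 2 elongases within a library needs no scaling and separated the groups more clearly than either gene. The log2 ratio of Elovl2 to Elovl5 counts was 0.90, 1.09 and 1.02 in the Vehicle mice and 0.54, 0.49 and 0.28 in the FGF19 mice. The difference was -0.56, several times the SD of 0.0977 among Vehicle mice and 0.137 among FGF19 mice, and it was between -0.62 and -0.49 with any library left out. The two-sided exact permutation test gave p = 0.1, the smallest possible with 3 against 3 mice, and 0.15 after Benjamini-Hochberg adjustment over the 6 ratios computed.

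Across branches, Scd1 was lower relative to Fads2 and Elovl6 relative to Elovl5. The log2 ratio of Scd1 to Fads2 counts was 2.82, 2.21 and 2.51 in the Vehicle mice and 1.77, 1.57 and 1.38 in the FGF19 mice, a difference of -0.94. That of Elovl6 to Elovl5 was -3.66, -2.68 and -2.78 in the Vehicle mice and -3.92, -4.03 and -4.33 in the FGF19 mice, a difference of -1.06. Neither ratio overlapped between the groups, and both had p = 0.1 in the two-sided exact permutation test (adjusted 0.15). The log2 ratio of Elovl3 to Elovl6 overlapped, with means of 1.46 ± 0.887 (SD, n = 3) and 2.34 ± 0.678 (SD, n = 3) (p = 0.3, adjusted 0.36, same exact test). The difference of 0.88 was 0.42 without Vehicle replicate 3 and 0.49 without FGF19 replicate 3.

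**Figure D3:**
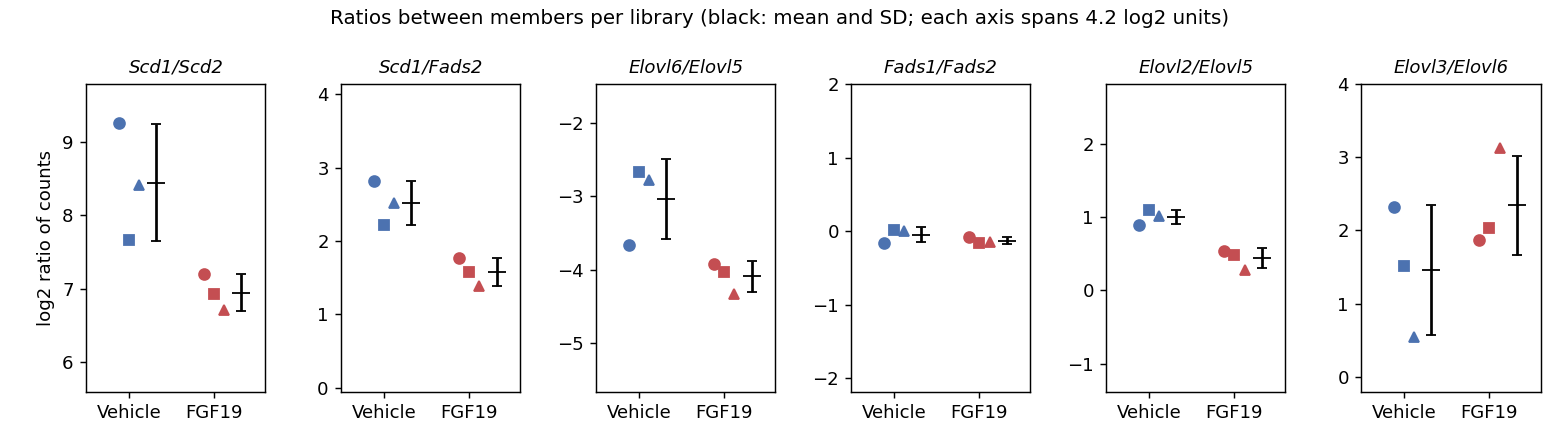
Log2 ratio of the counts of a pair of members in each library, with 1 point per mouse, the group mean and its SD in black, and axes of equal span centred on each pair. Scd1/Scd2, Scd1/Fads2, Elovl6/Elovl5 and Elovl2/Elovl5 are lower in every FGF19 mouse than in every Vehicle mouse, while Fads1/Fads2 and Elovl3/Elovl6 overlap.

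Levels were compared between genes per length, as RPKM (CPM divided by the length of the exon model in kilobases). In Vehicle mice the order of the mean levels was Scd1 (377 ± 137 RPKM, SD, n = 3), Elovl2 (269 ± 15.2), Fads2 (205 ± 31.8), Elovl5 (186 ± 19.1), Elovl3 (95.6 ± 30.1), Fads1 (85.9 ± 7.18), Elovl1 (16.1 ± 1.22), Elovl6 (10.9 ± 3.06), Fads3 (2.85 ± 0.352) and Scd2 (0.937 ± 0.213). Scd1 and Elovl2, Fads2 and Elovl5, and Elovl3 and Fads1 were neighbours in this order whose values overlapped between mice. In FGF19 mice the order began with Elovl5 (213 ± 27.0 RPKM), Elovl2 (211 ± 44.0), Fads2 (180 ± 11.7) and Scd1 (168 ± 26.9), and these neighbours overlapped too. Scd1 thus went from the highest mean level to the fourth, and ranks 5 to 10 were the same in both groups.

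The make-up of the family, as shares of the summed RPKM of the 10 members, differed between the groups, with less of the monounsaturated and more of the polyunsaturated branch after FGF19. Scd1 made up 35.9%, 24.6% and 28.4% in the Vehicle mice and 18.6%, 17.3% and 16.0% in the FGF19 mice. The polyunsaturated branch made up 54.4%, 62.5% and 63.7% in the Vehicle mice and 70.4%, 71.4% and 67.0% in the FGF19 mice, and Elovl5 alone made up 15.0% ± 1.5 (SD, n = 3) and 21.9% ± 0.737 (SD, n = 3). These shares are tied together, so a lower Scd1 by itself raises the others. The summed RPKM was 1249 ± 205 (SD, n = 3) in Vehicle mice and 969 ± 92.2 (SD, n = 3) in FGF19 mice, and without Scd1 it was 951, 827 and 836 in the Vehicle mice and 826, 851 and 725 in the FGF19 mice, which overlap.

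**Figure D4:**
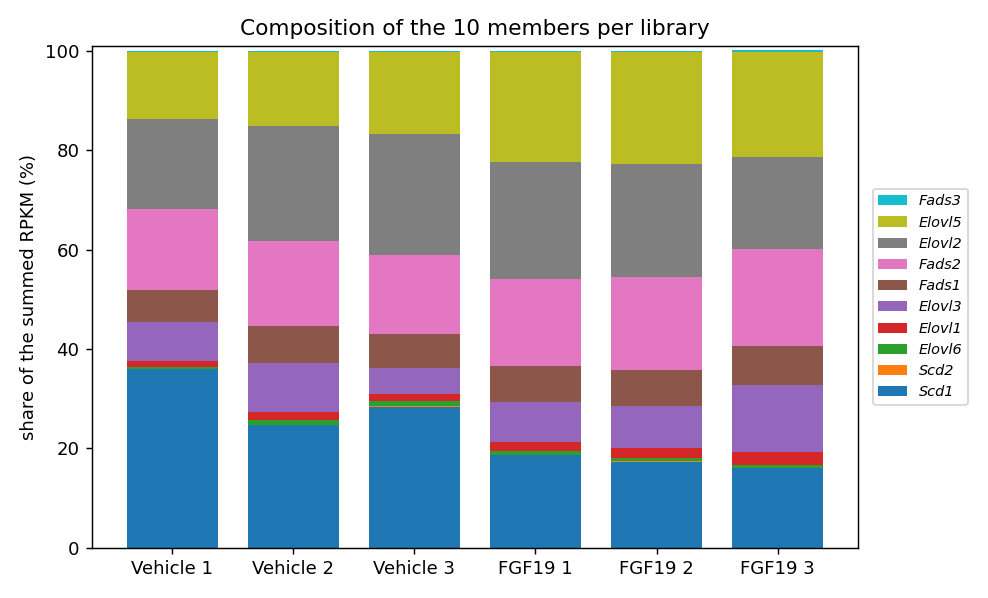
Share of each member in the summed RPKM of the 10 members, with 1 stacked bar per library and colours for genes. Scd1, at the base, takes 24.6% to 35.9% in the Vehicle mice and 16.0% to 18.6% in the FGF19 mice, and Elovl5, near the top, takes 13.5% to 16.5% and 21.1% to 22.5%.

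Fads3, on chromosome 19 from 10116038 to 10134161, was low in all mice. It was at 10.3, 9.59 and 8.04 CPM in the Vehicle mice and at 8.33, 5.97 and 8.19 CPM in the FGF19 mice, with overlap, a log2 fold change of -0.31, a 95% interval of -0.69 to 0.06 and an adjusted p of 0.306 in edgeR's quasi-likelihood test. Without FGF19 replicate 2 the log2 fold change was -0.16.

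Other genes of the pathway were taken from fixed lists and counted at the same adjusted p. Among the relatives that are no members, 3 of 7 had enough counts to be tested, 1 was lower (Fads6, log2 fold change -0.37, adjusted p = 0.0435 in edgeR's quasi-likelihood test and 0.0525 with no TMM scaling), and Scd3, Scd4 and Elovl4 were each below 0.1 CPM on average in both groups. Of the enzymes that complete each elongation cycle, 5 were tested and 1 was higher, Hsd17b12, which encodes the ketoreductase of the cycle (log2 fold change 0.41, adjusted p = 0.0378 in the same test and 0.0531 with no TMM scaling). Tecr, the enoyl reductase of the cycle, had a log2 fold change of -0.32 and Ptplad1, a dehydratase, of 0.26, and neither was called (adjusted p = 0.126 and 0.0908 in the same test). None of 5 tested genes for cytochrome b5 and its reductases, which bring electrons to the desaturases, was called by edgeR or DESeq2, and 1 of them, Cyb5r3, had an unadjusted p under 0.05. Of 11 genes that supply acyl-CoA and malonyl-CoA, 3 were lower and none was higher, namely Acss2 (acetyl-CoA synthetase, -0.59), Acaca (acetyl-CoA carboxylase, -0.72) and Acsl1 (long-chain acyl-CoA synthetase, -0.45). At the threshold of the study, an unadjusted p under 0.01, edgeR had 4 lower. The added gene was Fasn (fatty acid synthase, -0.76, unadjusted p = 0.00806 and adjusted p = 0.0788). At an unadjusted p under 0.05 edgeR had 5 lower, with Acly added (ATP citrate lyase, -0.69, adjusted p = 0.103), and DESeq2 called 5 lower. Acaca was at the threshold (adjusted p = 0.0489 in edgeR) and lost its call with no TMM scaling (0.0631), with limma-voom (0.0743) and with any library left out other than Vehicle replicate 3, while Acss2 kept its call with any library left out and Acsl1 only without FGF19 replicate 3. Of 9 genes that incorporate or shorten polyunsaturated chains, 1 was lower (Acaa1b, a peroxisomal thiolase, -0.54). The calls of Fads6, Hsd17b12 and Acaa1b were each lost without Vehicle replicate 3, FGF19 replicate 1 or FGF19 replicate 2, those of Fads6 and Acaa1b also without Vehicle replicate 1 and those of Fads6 and Hsd17b12 also without Vehicle replicate 2.

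Of 22 regulators of lipogenic and desaturase genes (transcription factors, their cofactors, the proteins that process SREBP and a DNA methyltransferase), 2 were higher and none was lower at an adjusted p under 0.05, while DESeq2 called 1 lower and 5 had an unadjusted p under 0.05 downwards in edgeR. The higher genes were Nr0b2, which encodes SHP (log2 fold change 1.38, adjusted p = 0.00823 in edgeR's quasi-likelihood test), and Insig2, which encodes an anchor that holds SREBP precursors in the endoplasmic reticulum (0.64, adjusted p = 0.0114 in the same test, and 0.0651 without Vehicle replicate 3). The other anchor of this kind, Insig1, had a log2 fold change of -0.93 and was not called (adjusted p = 0.0574 in the same test). Srebf1, which encodes SREBP1, had a log2 fold change of -0.74 and did not pass (adjusted p = 0.113 in the same test).

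The genes most like Scd1 over the 6 libraries, by Pearson's r of log2 CPM among 7535 other genes with at least 10 CPM, were Ces1f, Zzz3, Csad, Ces1g and Ces1e, with r between 0.991 and 0.995. All 5 were lower in every FGF19 mouse than in every Vehicle mouse, and the Ces1 genes resemble each other, so their split of reads is uncertain. The genes most like Fads2 were Cyb5b, Fam135a, D5Ertd579e, Ywhag and Gcnt2, with r between 0.978 and 0.992, and in none of these did the groups separate. With 6 libraries, 235 genes reached an r above 0.9 with Scd1 and 84 with Fads2, so these names describe a pattern of 6 values that libraries share and carry no test.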

How the data were processed

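Liver RNA of 6 mice (3 Vehicle, 3 FGF19) was sequenced on an Illumina HiSeq2000. The authors aligned reads with STAR (2.5.3a in the submitters' processing notes; the methods name another version) and counted them on mm9 exons with featureCounts 1.5.2, and the deposited values are raw counts per gene. Per the file headers strand was ignored, mates were counted singly and multi-mapping reads were left out. The authors' table of their own comparison (fold changes and p-values) was not used.

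Tests on these counts used edgeR 4.0.16 under R 4.3.3, with filterByExpr, TMM, the quasi-likelihood test and Benjamini-Hochberg adjustment over 12559 genes. Standard errors were derived from the F statistic. Ratios were compared by exact permutation over mice. All members were named, and likeness named 5 further genes for each of Scd1 and Fads2; list genes were named where called or where a result turned on them. Marker lists were hepatocyte, adipocyte, macrophage, endothelial, stellate, cholangiocyte, lymphocyte, neutrophil and erythroid. Members and lists were chosen with earlier results of these data known. Alternatives were DESeq2 1.42.0, RLE or no scaling, other filters, the likelihood ratio test, limma-voom 3.58.1, a replicate block and leaving out each library.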

Additional observations from a re-analysis of the deposited data

How the results depend on the processing

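Direction and call of Scd1 held in every alternative run other than leaving out libraries, where its log2 fold change was between -1.36 and -0.84 and the call was lost only without FGF19 replicate 2. That of Elovl1 was between 0.35 and 0.46 with a library left out, and that of Elovl6 between -1.09 and -0.67. Elovl6 passed an adjusted p under 0.05 with DESeq2 (-0.88, adjusted p = 0.00175), with no filter (-0.88, 0.0269) and with the likelihood ratio test (-0.87, 0.00537), so the lower members were then 2. Over all genes the lower calls in these fits were 519, 395 (of 16890 tested) and 579 in turn, against 357 of 12559 in the main fit. Elovl3 changed sign with limma-voom (0.016), with the replicate block (0.0079), and without Vehicle replicates 1 and 2 (0.15 and 0.077) or FGF19 replicates 1 and 2 (0.077 and 0.052), with a range of -0.26 to 0.15, and was called in none of these. With a library left out, the lower members numbered 0 to 2 and the higher members 0 to 1 at an adjusted p under 0.05, and 1 to 2 and 0 to 1 at p under 0.01. Over all genes the calls at an adjusted p under 0.05 then ranged from 91 to 926 lower and from 236 to 1015 higher. The median over all members was then between -0.28 and -0.12, and that of the polyunsaturated branch between -0.27 and -0.12, both nearest 0 without Vehicle replicate 1. Without FGF19 replicate 3 the genes called over all genes were 926 lower and 1015 higher, against 357 and 573. With any other library left out they fell to 91 to 202 lower and 236 to 398 higher.

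The replicate numbers did not pair the mice, since deviations of same-numbered libraries correlated with r of -0.0313, -0.181 and -0.182 and no library correlated best with its own number. With the replicate block, Elovl1 kept 0.41 but lost its call (adjusted p = 0.112), which left 0 higher members, and 164 lower and 370 higher genes were called over all genes. Of the list genes, Fads6, Hsd17b12, Acaa1b, Acsl1, Cry2, Cdh5 and Fabp4 also lost their calls with the block (adjusted p between 0.053 and 0.145 in the quasi-likelihood test). Fads6 lost its call with no filter as well (0.0511). With no TMM scaling the called numbers became 0 for lower relatives, 0 for higher elongation partners, 1 for lower regulators and 1 for lower male-biased genes, and 2 in place of 3 for lower supply genes. With DESeq2 they became 5 for lower supply genes, 1 for higher users of polyunsaturated chains, 1 for lower regulators, 5 lower and 1 higher for circadian genes, and 2 lower and 1 higher for male-biased genes. Scaling by RLE changed none of the calls of members. The limit of depth, 3 counts, bears on genes at or near 0, such as Scd3, Scd4, Lep, Retn, Adipoq and Plin1, and on none of the 10 members.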

Other observations

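Markers of other cells were not tied to a comparison above. Stellate cell markers summed to 177 to 260 CPM in Vehicle mice and 188 to 228 CPM in FGF19 mice, with none of 7 called by edgeR and 1 at an unadjusted p under 0.05. Cholangiocyte markers summed to 72 to 89.4 CPM and 55.7 to 86.0 CPM and lymphocyte markers to 9.44 to 13.2 CPM and 8.74 to 14.5 CPM, with none called by edgeR and 0 and 2 at an unadjusted p under 0.05. Erythroid markers summed to 57.3 to 78.8 CPM and 43.6 to 57.6 CPM, nearly all of it Alas2, with the 4 globin genes listed at 0 in all libraries. Multi-mapping reads were left out of the counts, and whether this set the globin counts to 0 was not tested. These zeros are therefore not read as absence of globin RNA. Alas2 was the only gene of this list tested, with a log2 fold change of -0.51 that was not called (unadjusted p = 0.00552 in edgeR).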
